A study of Homo sapiens with 10 samples.

Results

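Dividing cells copy their DNA in S phase and separate the copies in mitosis, and each of these steps has its own set of genes. The 36 genes described here are proliferation genes listed by name for these roles and found by symbol among the 58037 gene identifiers of the input tables. They comprise 11 genes of DNA replication and S-phase entry and 25 genes of G2 phase and mitosis, and all 36 were among the 16406 genes with enough reads to be tested.

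The study examined N6-methyladenosine (m6A), a methyl mark on messenger RNA, in A549 cells and in A549/DDP cells. A549 is a human lung adenocarcinoma line, and A549/DDP is a cisplatin-resistant line named for it, where DDP stands for cisplatin, a platinum drug that cross-links DNA. Both lines were grown in RPMI 1640 medium with fetal bovine serum and antibiotics, at low passage, and the labels name no drug treatment, time or transgene for either. Each line had 2 input libraries, which are poly(A) RNA fragments sequenced without pull-down, and 2 m6A-seq libraries, in which fragments were first pulled down with an m6A antibody. A549/DDP is 1 line, received as a gift from another laboratory, so cisplatin resistance and any other difference between the lines cannot be told apart. The cell line tag of both A549/DDP inputs reads A549, while their titles and cell type tags name the resistant line, and these were followed. A further pair of A549 inputs, told from the first pair by nothing but a full stop in the title, was kept out of the main comparison and is given beside it.

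The 4 inputs held 29225501 to 35286514 expected counts on genes. The further A549 pair held 855034 and 982036, of which 75.2% and 73.9% were mitochondrial, against 0.0363% to 0.0547% in the 4 inputs. The epithelial keratins KRT7, KRT8 and KRT18 were abundant in the 4 inputs, and the summed TPM (a level per transcript length) of 6 epithelial markers were 8621 and 11390 in A549 and 16050 and 15990 in A549/DDP. Among these markers EPCAM was low in all 4 inputs, at 2.45 to 6.95 TPM, KRT19 was at 0 in A549/DDP replicate 2, and CDH1 rose while KRT7 fell (log2 fold changes 2.26 and -1.66, adjusted p = 0.0220 and 0.0117). Summed TPM in A549 and A549/DDP respectively were 0.03 to 0.63 and 1.52 to 4.86 for 3 leukocyte markers, at most 0.4 and 0.2 for 3 endothelial markers, and 22.9 to 27.8 and 30.1 to 39.3 for 3 fibroblast or smooth muscle markers, with CD3E at 0 in all 4 inputs. The part of these markers in the results below was not tested. The labels do not say that replicates came from separate cultures, so the p-values measure only the spread between these libraries.

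In G1, the MCM2 to MCM7 helicase is loaded onto replication origins by CDC6 and CDT1, and the GINS complex joins it when DNA synthesis starts. E2F transcription factors, held back by the retinoblastoma protein, switch on these genes, and cyclin E with CDK2 starts S phase. Later the cyclin A and cyclin B kinases, the kinesin motors, the kinetochore proteins and the spindle checkpoint carry the cell through mitosis, and many of their promoters share the cell cycle genes homology region (CHR), an element bound by the DREAM and MMB-FOXM1 complexes.

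The letters around the gene starts differed between the 2 sets, and examples are shown from the members with the lowest adjusted p-values whose motif lies in the last 100 bases before the start. RefSeq promoters (GRCh38.p14, 250 bases before to 50 after the start) were matched for 28 of the 36 genes, 8 of replication and 20 of mitosis. The genes AURKA, BIRC5, CCNE2, MCM4, MCM5, TPX2, TTK and UBE2C were not matched. Capitals mark the CHR letters TTTGAA or TTTAAA, or in KIF11 the reverse complement TTCAAA, in 3 mitosis genes, CENPE at chr4:103198344-103198443 (minus strand), BUB1B at chr15:40160969-40161068 (plus strand) and KIF11 at chr10:92593030-92593129 (plus strand), each read 5′ to 3′ on the gene's strand.
CENPE: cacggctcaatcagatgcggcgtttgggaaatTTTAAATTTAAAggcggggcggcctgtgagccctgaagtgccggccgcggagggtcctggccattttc
BUB1B: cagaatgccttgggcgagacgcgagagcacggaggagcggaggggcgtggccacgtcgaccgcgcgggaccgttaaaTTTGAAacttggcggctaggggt
KIF11: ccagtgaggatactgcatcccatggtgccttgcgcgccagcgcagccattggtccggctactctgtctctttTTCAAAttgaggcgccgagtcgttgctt

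The letters searched for E2F proteins began with TTCCCGC, a classical form of the E2F site. Beside it stood TTGGCGC, another common form. The search also took TTCGCGC as a form of the site. It took TTGCCGC in the same way. Capitals mark any of these 4, or a reverse complement, in 3 replication genes, MCM7 at chr7:100101398-100101497 (minus strand), CDT1 at chr16:88803689-88803788 (plus strand) and GINS2 at chr16:85688955-85689054 (minus strand).
MCM7: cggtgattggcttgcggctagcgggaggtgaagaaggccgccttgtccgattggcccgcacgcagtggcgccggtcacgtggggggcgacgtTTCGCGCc
CDT1: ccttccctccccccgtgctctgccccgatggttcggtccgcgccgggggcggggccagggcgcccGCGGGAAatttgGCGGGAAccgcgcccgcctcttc
GINS2: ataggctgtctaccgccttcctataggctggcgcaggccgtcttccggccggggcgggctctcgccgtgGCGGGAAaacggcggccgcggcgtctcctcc

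Both strands of each window were searched, and TTTAAA is its own reverse complement. Each gene was counted once, as holding a motif if any of its promoters held it. CHR letters were found in 17 of the 20 matched mitosis genes (85.0%) and in 0 of the 8 matched replication genes. The matched mitosis genes without them were BUB1, AURKB and CCNA2. Over the tested genes with a promoter, 21.4% held CHR letters, and over all 27305 genes with a promoter 27.9% did. E2F-like letters were found in all 8 matched replication genes and in 5 of the 20 matched mitosis genes (25.0%), namely CCNB1, CDK1, DLGAP5, NUF2 and NUSAP1. The shares were 24.2% of tested genes and 15.3% of all genes with a promoter. The box CCAAT did not divide the sets in this way, with 6 of 8 (75.0%) and 16 of 20 (80.0%). Of tested genes 42.7% held it, and of all genes with a promoter 39.7%. These matches are letters in a window and not shown binding sites.

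In the inputs the 2 sets went in opposite directions. All 11 replication genes had a higher count in A549/DDP than in A549, and 5 of them rose at an adjusted p under 0.05 (edgeR, adjusted over all tested genes), while none fell. All 25 mitosis genes had a lower count in A549/DDP, and 18 of them fell while none rose. Over all tested genes 6.85% rose and 8% fell, so the members' shares were 45.5% of the replication genes and 72.0% of the mitosis genes. The median log2 fold change was 1.13 for the replication genes and -1.19 for the mitosis genes, beside -0.0016 over all tested genes.

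By counts, both A549/DDP libraries lay above both A549 libraries for all 11 replication genes, which was so for 29.7% of all tested genes. Both lay below both A549 libraries for 24 of the 25 mitosis genes, KIF20A being the exception, which was so for 32.7% of all tested genes. In bulk RNA, fewer cells in a phase and less RNA per cell in that phase cannot be told apart. Of the 36 members, 31 had an unadjusted p under 0.05, beside 5360 of the 16406 tested genes. Without A549/DDP replicate 2 the calls were 0 higher (9 at an unadjusted p under 0.05) and 13 lower, and without A549/DDP replicate 1 they were 2 and 12. Without A549 replicate 1 they were 7 and 20, without A549 replicate 2 they were 10 and 18, and all 11 replication genes kept a positive log2 fold change in each of these fits. DESeq2 called 8 higher and 21 lower, limma on log2 FPKM or TPM called 0 to 2 and 0 to 7 (on log2(TPM + 1), CDC6 higher, and BUB1, BUB1B, CENPF, TPX2, TOP2A, DLGAP5 and BIRC5 lower), and with both A549 pairs edgeR called 0 (9 at an unadjusted p under 0.05) and 4.

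**Figure D1:**
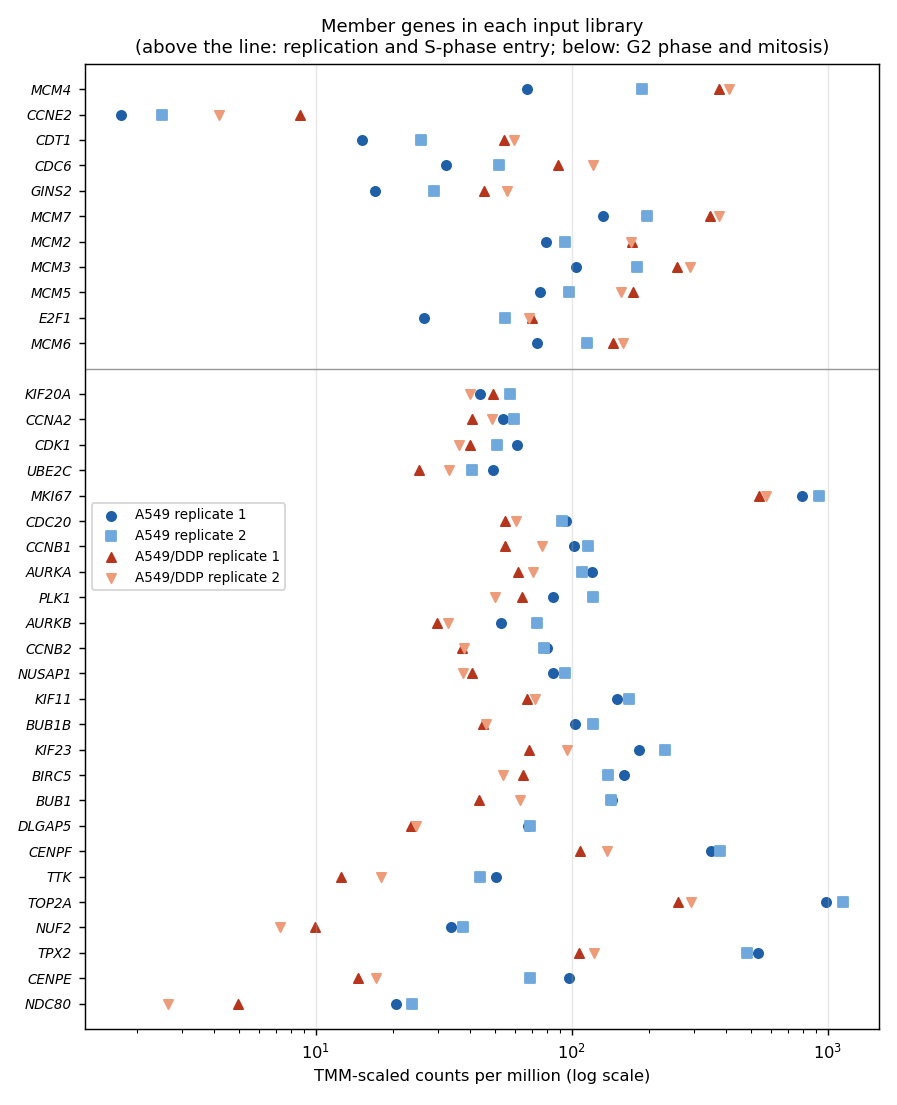
TMM-scaled CPM of each member (log axis) in the 2 A549 inputs (blue) and the 2 A549/DDP inputs (red), 1 point per library. The red points lie right of the blue points for all 11 replication genes, left of them for 24 mitosis genes, and among them for KIF20A.

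The MCM genes encode the 6 subunits of the replicative helicase. MCM2 had 78.9 and 94.3 CPM (read counts scaled to library size by TMM) in A549 and 172.2 and 169.5 in A549/DDP, a log2 fold change of 0.98 ± 0.18 (SE, n = 2 per line, adjusted p = 0.0201). MCM7 had 132.1 and 197.3 CPM in A549 and 346.6 and 377.0 in A549/DDP (log2 fold change 1.14 ± 0.23, adjusted p = 0.0257). MCM5 had 75.1 and 97.2 CPM against 173.8 and 156.1 (log2 fold change 0.94 ± 0.20, adjusted p = 0.0310). These 3 subunits rose about alike, and their A549 libraries lay well below both A549/DDP libraries.

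MCM4 showed the largest difference of the replication genes and the widest replicate gap of the 6 subunits. It had 67.1 CPM in A549 replicate 1, 187.9 in A549 replicate 2, and 375.0 and 409.9 in A549/DDP. With an adjusted p of 0.0638, its log2 fold change of 1.62 ± 0.45 did not pass. MCM3 had 103.4 and 179.6 CPM against 258.5 and 290.2, and MCM6 had 72.9 and 114.3 against 145.2 and 158.3. Their log2 fold changes of 0.96 ± 0.28 and 0.70 ± 0.25 did not pass either (adjusted p = 0.0717 and 0.115). The 6 subunits work as 1 ring, and A549 replicate 2 was the higher A549 library for each of them.

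CDC6 and CDT1, which load the helicase, both rose. CDC6 had 32.3 and 51.9 CPM in A549 and 88.3 and 120.6 in A549/DDP (log2 fold change 1.31 ± 0.30, adjusted p = 0.0375). CDT1 had 15.1 and 25.7 CPM against 54.2 and 59.4 (log2 fold change 1.48 ± 0.32, adjusted p = 0.0326), the largest rise that passed. GINS2, a subunit of the GINS complex that travels with the helicase, had 17.0 and 28.8 CPM against 45.6 and 56.0. Its log2 fold change of 1.15 ± 0.33 did not pass (adjusted p = 0.0697). In TPM the lines overlapped for GINS2, with 18.12 and 51.97 in A549 and 31.65 and 51.09 in A549/DDP. On log2(TPM + 1) its value was 0.37 (adjusted p = 0.677 by limma).

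The regulators of S-phase entry were the least certain of the set. E2F1, a transcription factor of S-phase genes, had 26.4 and 54.6 CPM in A549 and 69.6 and 68.2 in A549/DDP (log2 fold change 0.76 ± 0.36, adjusted p = 0.202). CCNE2, a cyclin E, was the lowest member, with 1.73 and 2.51 CPM in A549 and 8.67 and 4.18 in A549/DDP (log2 fold change 1.60 ± 0.87, adjusted p = 0.269). In both genes the lines did not overlap, but the gap between replicates of 1 line was wide.

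Between the A549 replicates, the shift in 1 direction was larger for the replication genes than for the mitosis genes. The median log2 ratio of A549 replicate 2 over replicate 1 was 0.68 for the 11 replication genes and 0.15 for the 25 mitosis genes, while between the A549/DDP replicates it was 0.12 and 0.13. A549 replicate 2 therefore lay between A549 replicate 1 and A549/DDP for all 11 replication genes.

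**Figure D2:**
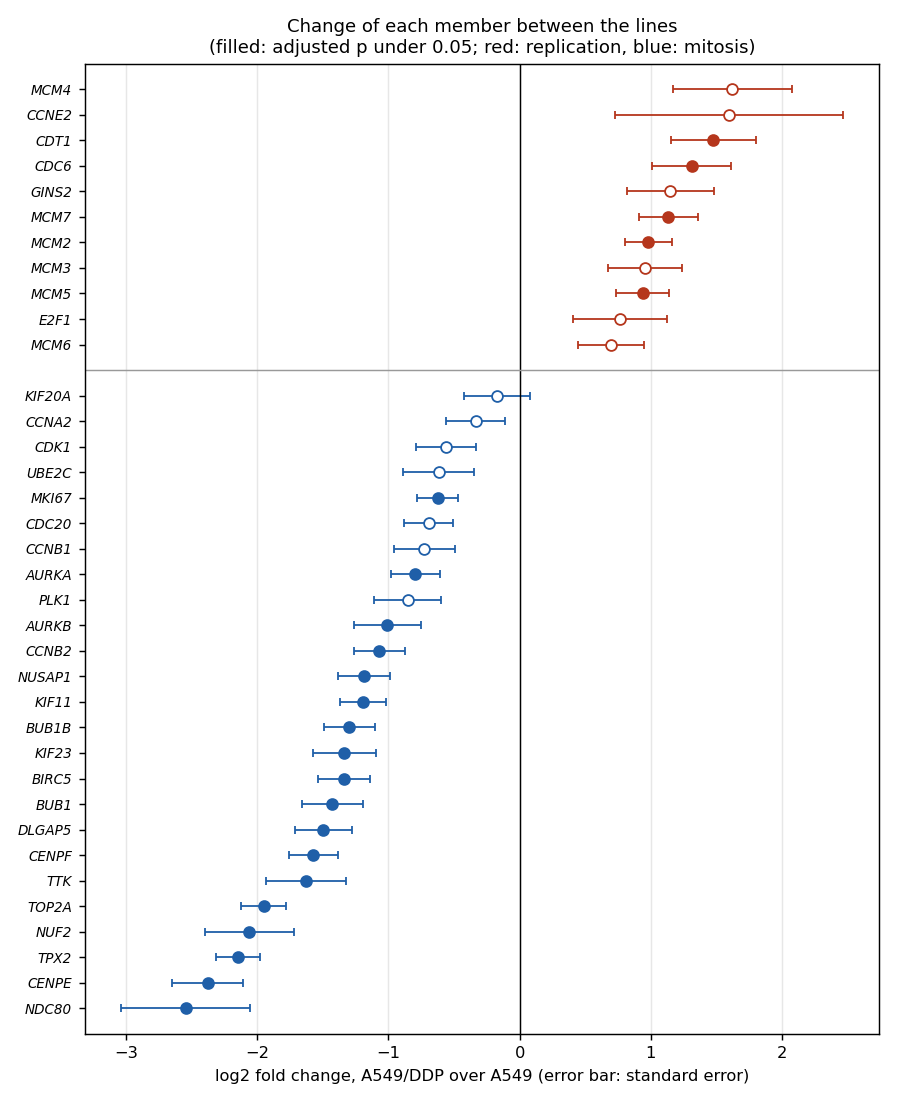
Log2 fold change of each member, A549/DDP over A549, with its standard error (bar), filled where the adjusted p is under 0.05, for the 11 replication genes (red) and the 25 mitosis genes (blue). The values run from 1.62 for MCM4 to -2.55 for NDC80, with all red points right of 0 and all blue points left of it.

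By counts, the 5 largest falls among the mitosis genes were those of NDC80, CENPE, TPX2, NUF2 and TOP2A. NDC80 and NUF2 form the complex that ties kinetochores to microtubules. NDC80 had 20.6 and 23.8 CPM in A549 and 4.96 and 2.64 in A549/DDP, 5.84-fold lower (log2 fold change -2.55 ± 0.49, adjusted p = 0.0233). On log2(TPM + 1) with limma the value of NDC80 was -1.47 (adjusted p = 0.270), which did not pass. NUF2 had 33.8 and 37.7 CPM against 9.88 and 7.25, 4.17-fold lower (adjusted p = 0.0146), and on log2(TPM + 1) its value was -1.28 (adjusted p = 0.110 by limma). Both are among the lowest mitosis genes, so their A549/DDP values rest on few reads beside those of TOP2A or TPX2.

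CENPE, a kinetochore motor, had 97.2 and 68.4 CPM in A549 and 14.7 and 17.1 in A549/DDP, 5.20-fold lower (log2 fold change -2.38 ± 0.27, adjusted p = 0.00580). On log2(TPM + 1) the lines overlapped for CENPE and the value was -0.997 (adjusted p = 0.436 by limma), and on log2(FPKM + 1) it was -0.88. CENPF, a large kinetochore protein, had 348.8 and 377.5 CPM against 107.5 and 136.6 (log2 fold change -1.57 ± 0.19, adjusted p = 0.00644). By counts the drop was larger in CENPE, whose A549 replicates were also further apart.

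TPX2, which nucleates spindle microtubules and activates Aurora A, gave the lowest adjusted p of all members. It had 533.2 and 481.7 CPM in A549 and 107.0 and 122.3 in A549/DDP, 4.42-fold lower (log2 fold change -2.15 ± 0.17, adjusted p = 0.00273). TOP2A, the topoisomerase that untangles sister DNA, had 983.3 and 1149 CPM against 258.9 and 292.1, 3.87-fold lower (log2 fold change -1.95 ± 0.17, adjusted p = 0.00314). In both genes the gap between the lines was many times the gap within them.

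The spindle checkpoint genes TTK, BUB1 and BUB1B fell, while MAD2L1 and BUB3, checkpoint genes that are not members and were named after their values were seen, had log2 fold changes of -0.04 and 0.07 (adjusted p = 0.961 and 0.862). TTK, the kinase at the top of the checkpoint, had 50.5 and 44.0 CPM in A549 and 12.5 and 18.0 in A549/DDP (log2 fold change -1.63 ± 0.30, adjusted p = 0.0211), and on log2(TPM + 1) its value was -0.93 (adjusted p = 0.256 by limma). BUB1, a checkpoint kinase of the kinetochore, had 143.3 and 142.2 CPM against 43.3 and 62.8 (log2 fold change -1.43 ± 0.23, adjusted p = 0.0146). BUB1B, which encodes the inhibitor BUBR1, had 103.2 and 121.0 CPM against 45.2 and 46.1 (log2 fold change -1.30 ± 0.19, adjusted p = 0.0110). Their target CDC20, the activator of the anaphase-promoting complex, had 95.1 and 91.4 CPM against 55.0 and 60.3, and its log2 fold change of -0.69 ± 0.18 did not pass (adjusted p = 0.0560). UBE2C, the ubiquitin-conjugating enzyme of the same complex, did not pass either, at 49.1 and 40.6 against 25.4 and 33.1 CPM (adjusted p = 0.173).

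Of the kinesin motors, KIF11, which pushes spindle poles apart, had 149.6 and 167.8 CPM in A549 and 67.1 and 71.9 in A549/DDP (log2 fold change -1.19 ± 0.18, adjusted p = 0.0110). KIF23, of the central spindle, had 182.3 and 231.1 CPM against 67.9 and 95.9 (log2 fold change -1.34 ± 0.24, adjusted p = 0.0185). On log2(TPM + 1) the value of KIF23 was -0.77 (adjusted p = 0.147 by limma), which did not pass. KIF20A, a motor of cytokinesis, did not go with them. It had 43.9 and 57.1 CPM in A549 and 49.4 and 40.0 in A549/DDP (log2 fold change -0.18 ± 0.25, adjusted p = 0.710), and its lines overlapped.

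The microtubule-associated genes DLGAP5 and NUSAP1 fell with log2 fold changes of -1.50 ± 0.22 and -1.19 ± 0.20 (adjusted p = 0.0104 and 0.0156). On log2(TPM + 1) their values were -1.42 and -0.64 (adjusted p = 0.0444 and 0.171 by limma), so NUSAP1 did not pass there. BIRC5, the survivin subunit of the chromosomal passenger complex, had 160.4 and 138.5 CPM in A549 and 64.4 and 53.7 in A549/DDP (log2 fold change -1.34 ± 0.20, adjusted p = 0.0110). The kinase of that complex, AURKB, had 52.7 and 72.8 CPM against 29.6 and 32.8 (log2 fold change -1.01 ± 0.26, adjusted p = 0.0493), close to the threshold. AURKA, the spindle pole kinase, had 120.4 and 109.5 CPM against 61.6 and 70.8 (log2 fold change -0.80 ± 0.19, adjusted p = 0.0408), and since AURKA has processed pseudogenes whose reads are divided by estimate, its count is less certain.

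Of the 5 kinases and cyclins of the entry into mitosis, 1 passed. CCNB2, a cyclin B, fell from 79.9 and 77.7 CPM in A549 to 37.1 and 38.1 in A549/DDP (log2 fold change -1.07 ± 0.20, adjusted p = 0.0207). CCNB1, CDK1, PLK1 and CCNA2 did not pass. CCNB1, the major mitotic cyclin, had 101.7 and 115.5 CPM against 54.6 and 76.7 (adjusted p = 0.0885). Its partner CDK1 had 61.3 and 51.2 CPM against 40.0 and 36.3 (adjusted p = 0.149). The kinase PLK1 had 84.6 and 121.0 CPM against 64.0 and 49.9 (log2 fold change -0.85 ± 0.25, adjusted p = 0.0754). CCNA2, a cyclin of S and G2 phase, had 53.6 and 59.5 CPM against 40.7 and 48.9 (adjusted p = 0.366). The lines did not overlap in any of these 4.

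MKI67, the source of the Ki-67 proliferation antigen, fell the least of the 18 that passed. It had 794.9 and 922.9 CPM in A549 and 539.7 and 574.2 in A549/DDP (log2 fold change -0.62 ± 0.16, adjusted p = 0.0474). Its direction turned with the further A549 pair in place of the first (log2 fold change 1.02, adjusted p = 0.0023), a fit in which the median over all tested genes was 0.80.

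On the TPM scale, which allows levels of different genes to be set side by side, TOP2A was the highest member in A549 and MCM4 the highest in A549/DDP. TOP2A had 539.8 and 653.4 TPM in A549 and 154.3 and 162.4 in A549/DDP, and MCM4 had 122.4 and 406.0 against 709.5 and 762.0. MCM7 and MCM3 took the next places in A549/DDP, with mean levels of 249.2 and 212.0 TPM. TPX2 went from rank 3 of the 36 in A549, at a mean of 231.5 TPM, to rank 18 in A549/DDP, at 52.5 TPM. MCM4 was already second in A549, where its 2 libraries were far apart. The TPM of MCM4 was scaled to a transcript length (effective length) of 763.1 to 833.5 bases in the 4 inputs. That length was 1535.6 to 2105 bases for MCM3 and 1855.7 to 2280.3 for MCM7, so the ranking rests partly on these lengths.

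Within a library, the sum over the 25 mitosis genes divided by the sum over the 11 replication genes does not depend on how libraries are scaled to each other. In TPM this ratio was 4.80 and 2.70 in the A549 inputs and 0.697 and 0.681 in the A549/DDP inputs. In the further A549 pair it was 4.49 and 7.002, from 40 and 53 counts of replication genes and 282 and 341 of mitosis genes. Summed counts gave 7.23 and 4.70 in A549, 1.07 and 1.10 in A549/DDP, and 7.05 and 6.43 in the further pair. Of the summed replication TPM, MCM4 gave 122.4 of 531 and 406.0 of 1169 in A549. In A549/DDP it gave 709.5 of 1702 and 762.0 of 1828. Every A549 library, the shallow pair included, had more mitosis than replication RNA by a wide margin, and the A549/DDP libraries did not.

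**Figure D3:**
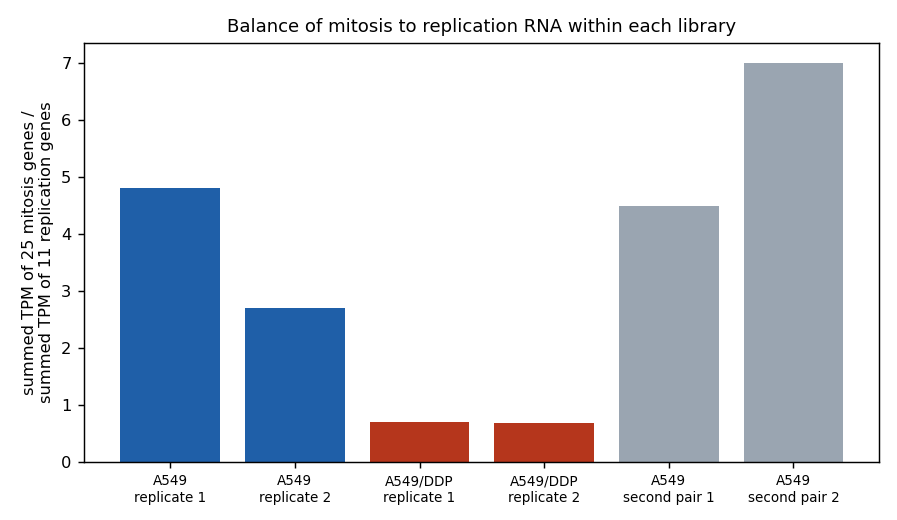
Summed TPM of the 25 mitosis genes over the summed TPM of the 11 replication genes in each of 6 input libraries (bars from 0; blue, A549; red, A549/DDP; grey, the further A549 pair). The A549 bars stand at 2.70 to 7.002 and the A549/DDP bars at 0.681 and 0.697.

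Other genes of the same steps, taken from lists of usual members drawn up with earlier results of these data known, went the same way in part. Of 28 other replication genes, 6 rose and 0 fell at an adjusted p under 0.05, 21 had a positive log2 fold change, and the median was 0.78. The 6 were ORC1, CCNE1, PCNA, GINS4, FEN1 and GINS1. ORC1, a subunit of the origin recognition complex, had the largest rise, with 13.0 and 21.0 CPM in A549 and 64.0 and 68.9 in A549/DDP (log2 fold change 1.96 ± 0.31, adjusted p = 0.0127). PCNA, the sliding clamp of DNA polymerases, had 120.8 and 116.3 CPM against 377.7 and 404.7 (log2 fold change 1.72 ± 0.16, adjusted p = 0.00353). No gene of this list fell at the threshold. In either direction 15 of the 28 had an unadjusted p under 0.05, beside 5360 of the 16406 tested genes.

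Of 32 other mitosis genes, 20 had an unadjusted p under 0.05, beside 5360 of the 16406 tested genes. A negative log2 fold change was found for 27, and the median was -0.83. At an adjusted p under 0.05, 15 fell and 0 rose. Without A549/DDP replicate 2 the number that passed was 9. KIF18A, a kinesin that limits chromosome movements in metaphase, fell most, from 104.4 and 67.7 CPM in A549 to 14.5 and 11.2 in A549/DDP (log2 fold change -2.74 ± 0.31, adjusted p = 0.00573). The other 14 were KIF2C, KIF4A, HMMR, ASPM, NEK2, CKS1B, CDCA8, ANLN, ECT2, RACGAP1, CDC25B, SGO1, NCAPG and SMC4. The promoters of these lists resembled those of the members, with CHR letters in 83.3% of the matched other mitosis genes and 11.1% of the other replication genes, and E2F-like letters in 40.0% and 74.1%.

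Of 19 transcriptional regulators of these promoters 1 rose and 1 fell (5.26% each, beside the 6.85% and 8% of all tested genes). The median log2 fold change was -0.0089, and 6 of the 19 had an unadjusted p under 0.05, beside 5360 of the 16406 tested genes. FOXM1, an activator of mitosis genes, had 102.2 and 130.9 CPM in A549 and 96.4 and 108.2 in A549/DDP (log2 fold change -0.19 ± 0.20, adjusted p = 0.602), and its lines overlapped. MYBL2, its partner on CHR promoters, had 117.9 and 197.2 CPM against 218.6 and 207.9 (log2 fold change 0.44 ± 0.26, adjusted p = 0.320). TFDP2, a dimer partner of E2F proteins, rose from 16.6 and 24.5 to 47.6 and 61.6 CPM (log2 fold change 1.41 ± 0.30, adjusted p = 0.0315). RB1, the retinoblastoma protein, fell from 75.0 and 59.9 to 34.7 and 36.7 CPM (log2 fold change -0.92 ± 0.23, adjusted p = 0.0461). The call of RB1 was lost without A549 replicate 1 or without either A549/DDP replicate, and that of TFDP2 without A549/DDP replicate 2, when 0 of the 19 passed. Without A549 replicate 2, 5 of the 19 passed, MYBL2 among them (log2 fold change 0.84).

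The m6A-seq lists give called peaks per gene and no read counts, so the depth of these libraries is unknown and 2 lists per line allow no test. The lists held 26320 and 14576 peaks for A549 and 27244 and 10661 for A549/DDP. Of the 36 members 16 (44.4%) had a peak in A549 replicate 1, 9 (25.0%) in A549 replicate 2, then 26 (72.2%) and 11 (30.6%) in A549/DDP replicates 1 and 2. Among all genes tested in the inputs these shares were 43.7%, 30.6%, 40.7% and 22.2%. Against all tested genes, the members thus lay near the share or below it in A549, and above it mainly in A549/DDP replicate 1. Shares per list among genes at the members' levels were not counted.

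A peak in both lists of a line was found for 8 members (22.2%) in A549 and 10 (27.8%) in A549/DDP, beside 27.1% and 19.5% of tested genes. Among the 9541 genes with a mean of at least 10 TPM, as 35 of the members have, the shares were 38.5% and 30.4%, so neither line's count stood above that of genes at such levels. All 4 lists held a peak for 6 members (16.7%), AURKA, AURKB, BIRC5, CDC20, E2F1 and MKI67, beside 13.9% of tested genes and 21.8% at the higher levels. PLK1 and UBE2C also had peaks in both A549 lists, and CDT1, CENPF, NUSAP1 and TPX2 in both A549/DDP lists. No list held a peak for 7 members (19.4%), MCM2, MCM7, CCNE2, CDK1, BUB1B, TTK and NDC80, which covers high and low levels alike. The share of all tested genes without a peak was not counted, so this is not read as a trait of the members.

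A549/DDP replicate 1 alone held peaks for 11 members (30.6%), beside 6.64% of tested genes and 9.58% at the higher levels. These were BUB1, CCNA2, CCNB1, CDC6, DLGAP5, KIF11, KIF23, MCM4, MCM6, NUF2 and TOP2A. KIF11 had 10 peaks there, KIF23 had 9, MCM4 had 8, and BUB1 and TOP2A had 7 each, with 0 in the other 3 lists. The second A549/DDP list held none of these, so they describe 1 library and not the line. In the same way 10 peaks of CENPE were in A549 replicate 1 alone.

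**Figure D4:**
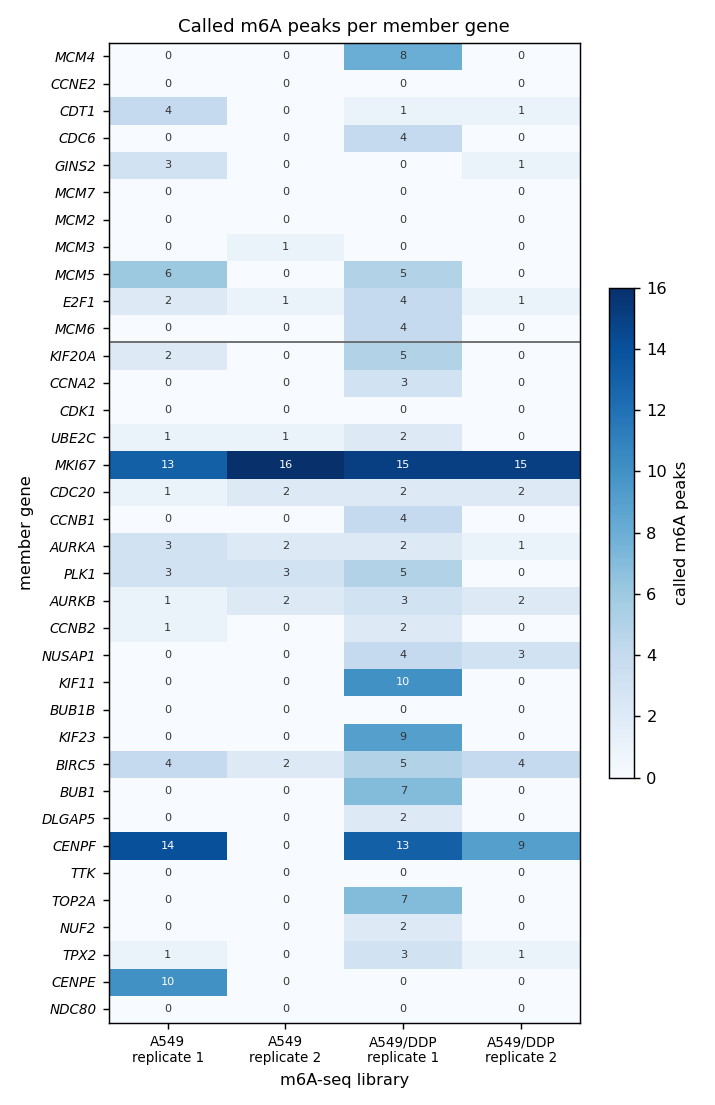
Number of called m6A peaks per member gene (rows, in the order of the expression change, replication above the line) in each of the 4 m6A-seq libraries (columns), with darker blue for more peaks. MKI67 has 13 to 16 peaks in every list, while KIF11, KIF23, MCM4, BUB1 and TOP2A have peaks in A549/DDP replicate 1 only.

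MKI67 carried the most peaks, with 13 and 16 in A549 and 15 and 15 in A549/DDP. Merged where they shared at least 1 base, the peaks of all members made 148 regions, of which 10 were in all 4 lists, and 5 of these were in MKI67. The region of MKI67 nearest its end lay at chr10:128097755-128103176 (hg38, minus strand) and covered 2543 bases of exon. With its p-values of 8.1e-06 and 3.7e-07 in A549 and 4.9e-06 and 6.8e-06 in A549/DDP, it was the 1 region left in all 4 lists when only peaks at or below 1e-05 were kept.

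The other regions in all 4 lists lay 1 each in AURKA (chr20:56369687-56370282, minus strand), AURKB (chr17:8207140-8207950, minus strand), BIRC5 (chr17:78224695-78225289, plus strand), CDC20 (chr1:43361069-43363153, plus strand) and E2F1 (chr20:33676615-33677133, minus strand). The shared regions of AURKA, BIRC5 and CDC20 ended within 50 to 346 bases of the annotated end of the gene. Those of E2F1 and AURKB ended 1138 and 2409 bases from it, and those of MKI67 1096 to 10702 bases from it. No exon or UTR annotation was used here, so their place within the transcript is given only by these distances.

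With 1 base of overlap, 0 regions were in both A549 lists and in neither A549/DDP list, and 6 regions, 3 in NUSAP1, 2 in BIRC5 and 1 in CENPF, were in the opposite pattern. Where overlap had to reach 50% of the shorter peak, these counts were 2 and 7. By the first count, 101 of the 148 regions were in 1 list only. Regions were merged for the members alone, so no share over all genes stands beside these counts. They are not read as a trait of the members or of a line. A BIRC5 region of both A549/DDP lists lay at its start, at chr17:78214335-78214884 (plus strand), 82 bases after the annotated start, with p-values of 1.5e-05 and 0.00083 in the A549/DDP lists. The NUSAP1 gene had 0 peaks in both A549 lists and 4 and 3 in A549/DDP, while its input level was lower in A549/DDP. Whether these regions differ in methylation was not tested, since the lists hold calls only.

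**Figure D5:**
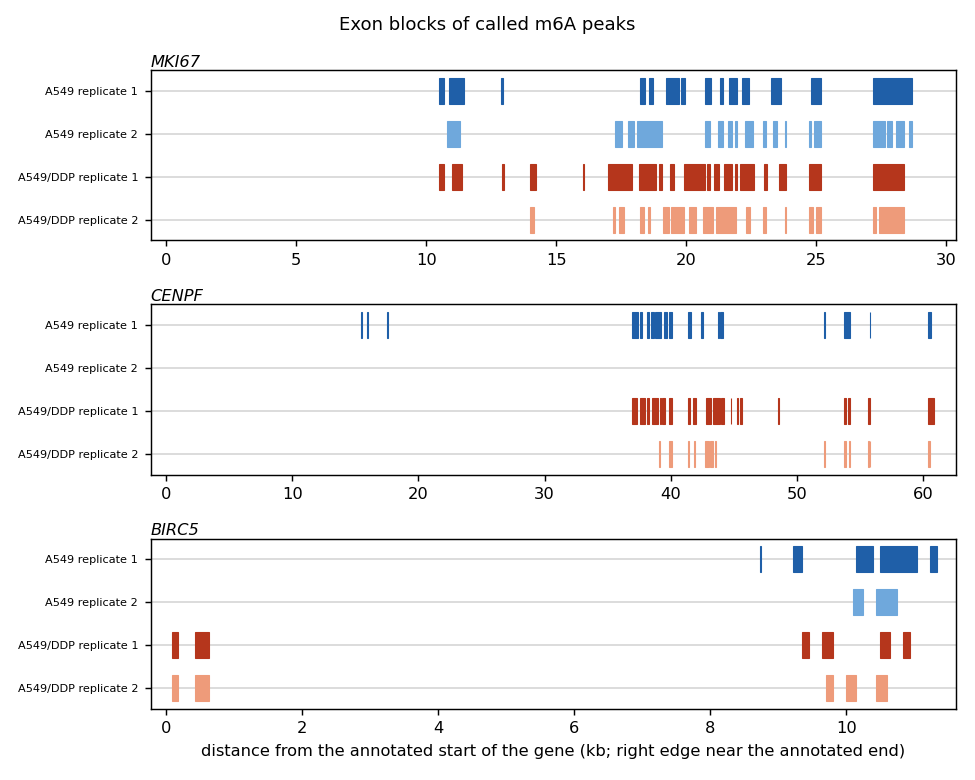
Exon blocks of called m6A peaks (bars) along MKI67, CENPF and BIRC5 in the 4 m6A-seq libraries, drawn as distance from the annotated start in kb. MKI67 has blocks in all 4 lists, CENPF none in A549 replicate 2, and BIRC5 has blocks at its start in both A549/DDP lists only.

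Within 2000 bases of the gene's end lay 20 of 69 (29.0%) and 12 of 30 (40.0%) member peaks in A549, and 37 of 131 (28.2%) and 14 of 40 (35.0%) in A549/DDP. Among all peaks that could be placed this way the shares were 34.6%, 37.9%, 35.0% and 42.3%, so the members' share was the lower one in 3 lists and the higher one in A549 replicate 2.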

How the data were processed

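Total RNA of A549 and A549/DDP cells was enriched for poly(A) RNA, and strand-specific dUTP libraries of m6A-precipitated and input fragments were sequenced by the authors as paired ends. The authors deposited, for each input, expected counts per Ensembl gene, in the layout of RSEM and not normalized, beside TPM and FPKM, which correct for library size and transcript length. For each m6A-seq library the authors deposited 1 list of peaks with a p-value per peak, not said to be raw or adjusted. The submitters' processing notes name STAR, RSEM, bedtools and hg38, and the peak caller is not given in the sources used here.

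Of 58037 identifiers 56993 were matched to a symbol. Expected counts of the 4 inputs were rounded and tested in edgeR 4.0.16 (R 4.3.3) by glmQLFit and glmQLFTest, after filterByExpr and TMM scaling and without a block, with Benjamini-Hochberg adjustment over 16406 genes at a threshold of 0.05. Standard errors were approximated by dividing each log2 fold change by the square root of its F. Replicates of a line differed by more than sampling noise (chi-square per degree of freedom 90.7 and 53.3). DESeq2 1.42.0 and limma 3.58.1 on log2 TPM or FPKM with a pseudocount (1, or 0.1 for TPM) were among the alternatives. The scripts were tested on simulated counts with less spread between replicates than these inputs had, so their error rates here were not measured. Peaks were assigned by the gene listed with them and merged by 1 base of overlap of exon blocks on 1 strand. The A549 m6A-seq replicate numbers of the labels are the reverse of those in the file names; the labels decided. The depth of the inputs bounds counting error only.

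The members, the other lists, the markers and the tests were chosen with earlier results of these data known. Named genes were all 36 members, the largest called rise and fall of each other list, and FOXM1, MYBL2 and PCNA; other called genes, the keratins and other markers were named in counts after their values were seen. Promoter sequences are from RefSeq, and the promoter and region counts were added after the data were seen. Plots were drawn with matplotlib 3.10.9 in Python 3.11.15.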

Additional observations from a re-analysis of the deposited data

How the results depend on the processing

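Every alternative kept a positive log2 fold change for all 11 replication genes, and a negative one for the 25 mitosis genes except for 6 genes with the further A549 pair and 1 without A549 replicate 2. With the further pair, MKI67 was at 1.02 (adjusted p = 0.0023), CCNA2 0.63, KIF11 0.16, KIF20A 0.10, CENPE 0.34 and CDC20 0.20, beside a median over all genes of 0.80, and KIF20A ranged from -0.37 to 0.011 leaving out 1 library. RB1 (0.29) and FOXM1 (3.03) also turned with the further pair, and FOXM1 (0.35) with both pairs; the cause was not tested. Of all settings of the single members, 369 kept direction and side of the threshold, 44 gained a call, 120 lost one and 7 reversed.

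Genes called among all tested numbered 2437, against 4329 with DESeq2, 4010 with no filter beyond 1 count, 1632 with limma on log2(FPKM + 1), 1492 on log2(TPM + 1), 1177 on log2(TPM + 0.1), 677 with both A549 pairs and 3758 with the further pair alone, and 2052 to 3809 leaving out 1 library. With no filter on TPM, limma called 0 genes, with 4519 at an unadjusted p under 0.05, among them 4 members higher and 19 lower. In the order DESeq2, no filter, at least 10 counts, FPKM, the 2 TPM settings, TPM without filter, both pairs and further pair, members called higher were 8, 10, 9, 2, 1, 0, 0, 0 and 10 (0 to 10 leaving out 1 library), where MKI67 is 1 of the last 10. Members called lower were 21, 21, 21, 7, 7, 6, 0, 4 and 7 (12 to 20). Other replication genes called were 13, 14, 13, 0 (TPM without filter), 2 (both pairs) and 13 (further pair), and 6 to 12 leaving out 1 library. Other mitosis genes called were 7, 7 and 7 with FPKM and both TPM settings, 0 without filter, 5 with both pairs, and 9 to 17 leaving out 1 library. Regulators called were 5, 5 and 5 with DESeq2, no filter and at least 10 counts, 0 with FPKM, the 3 TPM settings and both pairs, and 0 to 5 leaving out 1 library. The median over the members, -0.76, became -0.064 with the further pair. With 1 library left in a line, that library was assumed to vary like the others.

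With a replicate block, 3536 genes, 9 members higher and 21 lower, 14 other replication genes and 4 regulators were called. Same-numbered libraries did not deviate together (correlation 0.023). Whether they shared a preparation or a run was not tested, and this correlation cannot exclude it.

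Members with a peak in both lists were 8 in A549 and 10 in A549/DDP, against 1 and 1 at a p at or below 1e-05, 1 and 0 with 10661 peaks per list, 17 and 27 with a peak in either list, and 9 to 16 and 11 to 26 with 1 list for the line. Assigning peaks by gene span left 8 and 10, and 50% overlap left 10 regions in all 4 lists, with 2 in place of 0 in both A549 lists alone. Depth limits CCNE2 and NDC80 most, and the m6A-seq depth is unknown.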

Other observations

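The TPM and the counts of some members gave different pictures because the effective length differed between libraries. This is the transcript length to which the authors' tables scale a gene. In some members it differed between the lines. GINS2 had 1353.6 and 914.6 bases in A549 and 2217.3 and 1699.8 in A549/DDP. KIF23 had 2612.1 and 2481.9 against 1602.8 and 1839.3, and NUSAP1 had 1311.6 and 1232.8 against 915.7 and 829.6. In other members it differed between libraries of 1 line. CENPE had an effective length of 5500 and 7888 bases in A549, and of 1076 and 7289 in A549/DDP replicates 1 and 2. Its TPM was 25.6 and 14.3 in A549 and 21.0 and 3.64 in A549/DDP, so the lines overlapped on this scale, although its CPM was 14.7 and 17.1 in A549/DDP. NDC80 had an effective length of 526.8 bases in A549/DDP replicate 1 and 1787 to 2043 in the other 3 inputs, and its TPM was 14.5 and 2.00 in A549/DDP against 16.6 and 19.2 in A549. TTK had 840.2 bases in A549/DDP replicate 1 and 2193 to 2878 in the others, with 22.9 and 9.68 TPM in A549/DDP against 26.2 and 33.1 in A549.

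CCNE2, a replication gene at low counts, had an effective length of 488.4 and 2598 bases in A549 and 1149 and 998.3 in A549/DDP, and its TPM was 5.13 and 1.59 against 11.6 and 6.50. AURKB had 1129 bases in A549/DDP replicate 1 and 582.4 to 612.6 in the others.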
